A study of Rattus norvegicus with 4 samples.

Results

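The Wnt ligands, their receptors and their inhibitors were read as a group in injured rat muscle. Members were chosen by the gene name printed in the array files, whatever their values. The rule took names that begin with Wnt, Fzd, Sfrp, Dkk, Wisp or Tcf7, and the names Frzb, Wif1, Lef1, Axin2, Lrp5 and Lrp6. It found 42 genes, read by 54 probes, of 35658 gene names and 41012 probes on the array. The injured samples were gracilis muscles, a thigh adductor, of male Sprague-Dawley rats. They had 4 h of ischemia and then 1, 3, 7 or 14 days of reperfusion. The comparison samples were gracilis muscles of sham-operated male Sprague-Dawley rats. RNA of an injured sample (Cy5) and a sham sample (Cy3) was hybridised to a single 2-colour Agilent array for each day. The dyes were never swapped, so a dye effect of a probe that is the same on every array cannot be told apart from an effect of the injury. With 1 array a day no test exists for a single day, and a log2 ratio of injured over sham of at least 1 in size (2-fold) served as a rule of size. The labels give neither the age of the rats nor whether the sham RNA of different days came from different animals or from a common pool, so the spread between sham channels may be technical.

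Wnt proteins are secreted, lipid-modified glycoproteins that bind Frizzled receptors (Fzd) on neighbouring cells, often together with the co-receptors Lrp5 or Lrp6. In the canonical branch this protects beta-catenin from degradation, so that it can act with Tcf and Lef factors on target genes, among them the feedback inhibitor Axin2. Secreted Frizzled-related proteins (Sfrp and Frzb) and Wif1 bind Wnt proteins outside the cell, and Dickkopf proteins such as Dkk1 bind the Lrp co-receptors. In rodent skeletal muscle the pathway is known for its part in regeneration and in the fibrosis that can follow injury.

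The values rest on oligonucleotide probes of 60 bases. A few are shown because the results turn on the genes they read, each 5′ to 3′ as the array files list it, with its position in the rat build rn4. Probe A_44_P1036291 reads Sfrp2 at chr2:175485829-175485888, plus strand. Probe A_44_P292745 reads Sfrp4 at chr17:53127536-53127595, minus strand. Probe A_44_P513059 reads Sfrp1 at chr16:73031711-73031770, minus strand. Probe A_44_P367465 reads Fzd9 at chr12:22583344-22583403, plus strand. No base is in capitals because no part of a probe was singled out.
Sfrp2: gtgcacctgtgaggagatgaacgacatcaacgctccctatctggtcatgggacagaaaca
Sfrp4: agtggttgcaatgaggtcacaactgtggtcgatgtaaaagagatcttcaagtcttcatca
Sfrp1: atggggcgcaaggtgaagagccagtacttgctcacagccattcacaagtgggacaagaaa
Fzd9: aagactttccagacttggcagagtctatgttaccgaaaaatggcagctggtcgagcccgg

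Signal was well above background for 64.4% to 68.7% of all probes in the injured channel and for 34.7% to 47.3% in the sham channel. Across 40 probes printed 10 times on each array, the SD of the log2 ratio between spots was 0.035 to 0.072, which covers printing and scanning only. The 7 mature muscle fibre markers (such as Ckm and Acta1) were above background in all 4 sham channels, as the labelled tissue requires. A gene counted as measured on a day when 1 or both channels of its probe were well above background, and the brightest probe stood for a gene with several. Of the 42 Wnt genes, 33 were measured on at least 1 day and 22 on every day. The 9 genes measured on no day were Frzb, Fzd6, Fzd7, Lef1, Wnt2b, Wnt6, Wnt8a, Wnt8b and Wnt10b. Both channels were above background on every day for 10 genes, namely Fzd1, Lrp6, Sfrp2, Sfrp4, Sfrp5, Wisp1, Wisp2, Wnt4, Wnt5b and Wnt11. No member's spot was saturated.

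Few Wnt genes were far from sham. Of the 7 that were at least 2-fold higher after day 1, 4 (Sfrp1, Sfrp2, Sfrp4 and Dkk3) belong to families of secreted inhibitors. Among the 33 measured members, 4 were Sfrp genes and 4 were Dickkopf genes or Wif1. Sfrp1 only just reached the threshold, with a log2 ratio of 1.00 on day 7, and the counts are too small for more than a description. Sfrp2, Sfrp4 and the Frizzled receptor Fzd1 were at least 2-fold higher than sham on each of days 3, 7 and 14. Dkk3 and Wisp2 were at least 2-fold higher on days 7 and 14, and Sfrp1 and Wisp1 on day 7. Fzd9 was at least 2-fold lower on days 1 and 3, and Sfrp4 and Wisp2 were at least 2-fold lower on day 1. None of the 13 measured Wnt ligands was 2-fold from sham on any day in these loess-normalized ratios.

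On day 1, 0 of 24 measured Wnt genes were at least 2-fold higher than sham, against 1.24% of all genes measured, and 3 (12.5%) were at least 2-fold lower, against 4.91%. On day 3, 3 of 29 (10.3%) were higher, against 2.47% of all genes, and 1 (3.45%) was lower, against 3.95%. On day 7, 7 of 29 (24.1%) were higher, against 3.13% of all genes, and 0 were lower, against 1.23%. On day 14, 5 of 27 (18.5%) were higher, against 3.14% of all genes, and 0 were lower, against 1.57%. The share higher on days 3, 7 and 14 thus lay above that of all genes, with counts too small for more than a description. The distance between the shares depended on the source of the ratios. With the deposited ratios 11, 9 and 7 measured members were higher on those days, against 15.5%, 17.5% and 17.3% of all genes. On those days 16, 18 and 11 of the measured members were above background in the injured channel alone, and so counted through that channel. Above background in both channels were 13, 11 and 16 members, of which 3, 5 and 4 were at least 2-fold higher. The shares of all such genes were 3.92%, 5.08% and 4.03%. Median log2 ratios of the measured Wnt genes were -0.18, 0.11, 0.06 and 0.20 on days 1, 3, 7 and 14, against 0.02, 0.03, 0.04 and 0.05 over all genes measured. The median depended on the filter, the scaling and the source of the ratios. Over members above background in both channels it was -0.24, 0.59, 0.66 and 0.34, against -0.01 to 0.00 over all such genes. In the deposited value table it was -0.44, 0.67, 0.57 and 0.64, against 0.14, 0.18, 0.23 and 0.12. With arrays only centred on their median it was -0.067, 0.205, 0.183 and 0.441, against 0.37, 0.29, 0.27 and 0.27, and so below that of all genes on days 1, 3 and 7.

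**Figure D1:**
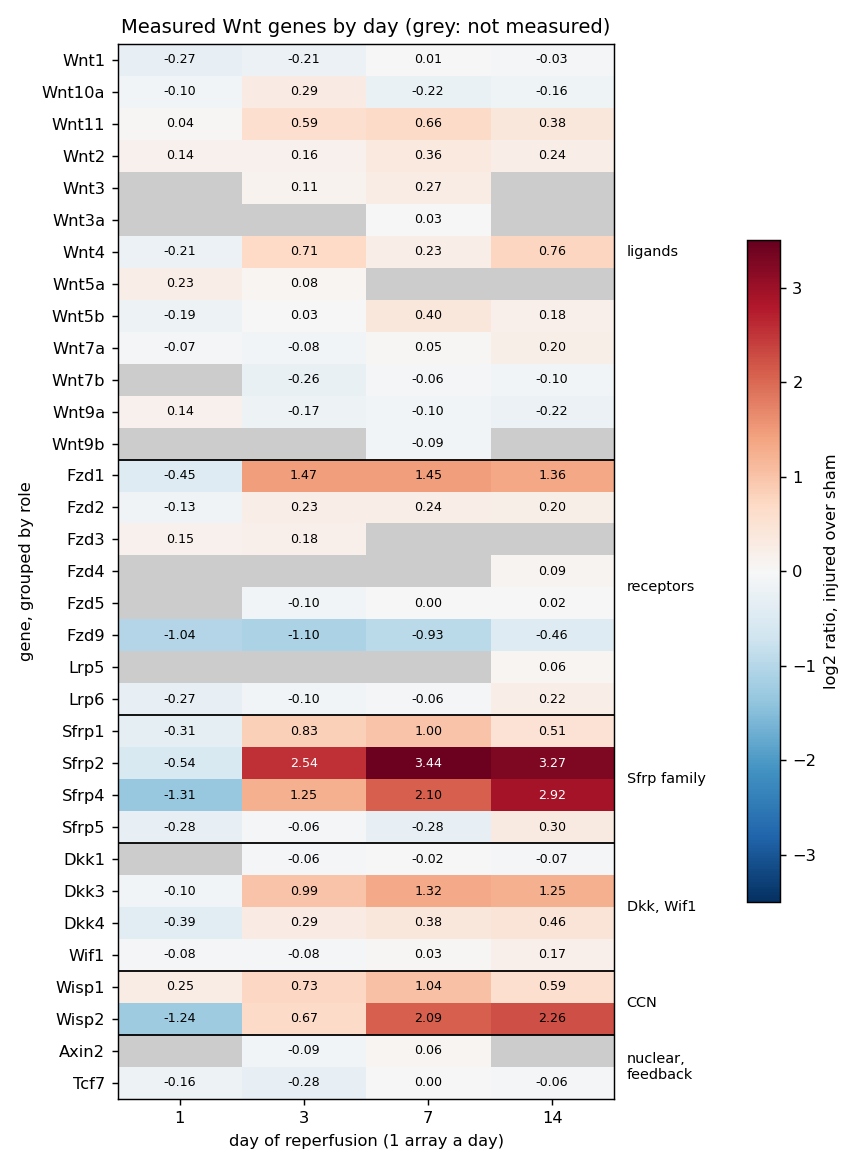
Log2 ratio of injured over sham (colour and printed value) for the 33 measured Wnt genes, in rows grouped by role, on days 1, 3, 7 and 14 in columns, 1 array a day. Ligand rows lie between -0.27 and 0.76, while Sfrp2 reaches 3.44 and Sfrp4 reaches 2.92, and grey cells were below background in both channels.

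The ligands come first among the roles. Of 18 Wnt genes on the array, 13 were measured on at least 1 day, and their median log2 ratios were -0.07, 0.08, 0.04 and 0.18 on days 1, 3, 7 and 14. Wnt11, a ligand mostly tied to branches that do not use beta-catenin, had log2 levels of 9.41, 10.11, 9.81 and 9.76 in the injured channels on those days, against 9.36, 9.53, 9.15 and 9.38 in the sham channels. Its injured level was the higher of the pair on each array, but the day 1 injured level lay within the range of the sham levels. The log2 ratios were 0.04, 0.59, 0.66 and 0.38. Wnt4, a ligand known from kidney and reproductive tract development, had log2 levels of 6.83, 8.0, 7.74 and 7.90 in the injured channels, against 7.04, 7.30, 7.51 and 7.15 in the sham channels. Its log2 ratios were -0.21, 0.71, 0.23 and 0.76, so that day 1 was on the other side of sham from the later days. Wnt5b gave -0.19, 0.03, 0.40 and 0.18. The ligands Wnt1, Wnt2, Wnt3, Wnt3a, Wnt5a, Wnt7a, Wnt7b, Wnt9a, Wnt9b and Wnt10a lay between -0.27 and 0.36 wherever they were measured. Of these, only Wnt1 and Wnt7a were above background in a sham channel on any day, so for the others the ratio sets an injured level against a sham level that was not measured. In the deposited value table several ligands did pass 2-fold, among them Wnt4 (1.17 on day 3 and 1.29 on day 14), Wnt5a (1.42 on day 3) and, in the lower direction, Wnt9b (-2.71 on day 7). With arrays only centred on their median, Wnt11 passed on all 4 days (1.12, 1.49, 1.34 and 1.05) and Wnt4 on days 3 and 14 (1.31 and 1.23).

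Among the receptors, Fzd1 and Fzd9 lay on opposite sides of sham. Fzd1, a Frizzled receptor, had log2 levels of 7.64, 9.65, 9.84 and 9.40 in the injured channels on days 1, 3, 7 and 14, against 8.09, 8.17, 8.39 and 8.04 in the sham channels. The 3 later injured levels lay above all 4 sham levels and the day 1 injured level lay below them. The log2 ratios were -0.45, 1.47, 1.45 and 1.36, the last 3 corresponding to 2.78-, 2.74- and 2.56-fold higher. The sham levels had a mean of 8.17 ± 0.15 (SD, n = 4 arrays).

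Fzd9, a Frizzled receptor best known from brain and bone in mice, had log2 levels of 5.95, 6.03, 6.24 and 6.68 in the injured channels, against 6.99, 7.13, 7.18 and 7.14 in the sham channels. All 4 injured levels lay below all 4 sham levels, and the injured level of day 1 was not well above background. The log2 ratios were -1.04, -1.1, -0.93 and -0.46 on days 1, 3, 7 and 14. Fzd9 was therefore at least 2.05-fold lower on day 1 and 2.14-fold lower on day 3. The deposited value table, whose ratios were made without an added offset, held -3.70, -3.25, -2.23 and -0.99 for it, again lowest on days 1 and 3. With arrays only centred on their median its day 3 value was -0.99, just under 2-fold.

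The other receptors stayed within 2-fold in the loess-normalized ratios. The co-receptor Lrp6 had log2 ratios of -0.27, -0.10, -0.06 and 0.22, and Fzd2 had -0.13, 0.23, 0.24 and 0.20. Fzd3, Fzd4, Fzd5 and the co-receptor Lrp5 were above background on 1 to 3 days, in the injured channel alone, with log2 ratios between -0.10 and 0.18, whereas the deposited value table held 1.33 for Fzd3 on day 1.

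The secreted Frizzled-related proteins held the ratios farthest from sham. Of 5 genes, 4 were measured, with median log2 ratios of -0.43, 1.04, 1.55 and 1.72 on days 1, 3, 7 and 14. Sfrp2, which binds Wnt proteins and is expressed by fibroblasts, had log2 levels of 7.61, 10.62, 11.41 and 11.29 in the injured channels, against 8.15, 8.08, 7.97 and 8.02 in the sham channels. The sham levels were close to one another (mean 8.05 ± 0.08, SD, n = 4 arrays), and the injured levels of days 3, 7 and 14 lay far above them. The log2 ratios were -0.54, 2.54, 3.44 and 3.27, the last 3 corresponding to 5.83-, 10.8- and 9.63-fold higher. Sfrp2 had 3 probes within about 1 kb of each other in rn4, and all gave the same order of days. Probe A_44_P503116 gave -0.58, 2.02, 2.64 and 2.25. Probe A_44_P1036291, whose sequence is printed above, gave -0.25, 1.1, 1.88 and 1.87, more than 1 log2 unit below the brightest probe on days 3, 7 and 14. On day 7 the sham channel of A_44_P1036291 was not well above background, so its 1.88 is a lower limit. It was also the dimmest Sfrp2 probe in the sham channels. In the deposited value table, made without an added offset, A_44_P1036291 had -0.86, 1.96, 2.75 and 3.13, against -0.69, 2.99, 4.09 and 3.73 for the brightest probe. The direction of Sfrp2 was thus shared by its probes and its measured size was not, for reasons that were not tested.

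Sfrp4, another inhibitor of the family, had log2 levels of 7.39, 9.92, 11.03 and 11.72 in the injured channels on days 1, 3, 7 and 14, against 8.70, 8.67, 8.94 and 8.79 in the sham channels. The day 1 injured level lay below all 4 sham levels and the later injured levels lay above them all. The log2 ratios were -1.31, 1.25, 2.10 and 2.92, which is 2.48-fold lower on day 1 and then 2.39-, 4.28- and 7.59-fold higher. A second probe, A_44_P292745, gave -0.87, 0.81, 1.71 and 2.15. Another probe, A_43_P16129, was below background in both channels on every array and lies 88.8 kb from the brightest probe in rn4, so that it may not read the same transcript. With each array only centred on its median, Sfrp4 had a log2 ratio of -0.49 on day 1, so its day 1 value was not 2-fold under that scaling.

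Sfrp1 had log2 levels of 6.20, 7.56, 7.94 and 7.60 in the injured channels, against 6.51, 6.74, 6.93 and 7.09 in the sham channels. The injured channel was not well above background on day 1, nor was the sham channel on days 3 and 7. It was at least 2.01-fold higher on day 7 (log2 ratio 1.00, at the threshold itself), and its log2 ratios on days 1, 3 and 14 were -0.31, 0.83 and 0.51. Sfrp5 had log2 ratios of -0.28, -0.06, -0.28 and 0.30, and its second probe gave -0.05, -0.04, 0.26 and 0.10. Both probes of Sfrp5 thus stayed near sham on every day, whereas the deposited value table held -2.40 for Sfrp5 on day 7.

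**Figure D2:**
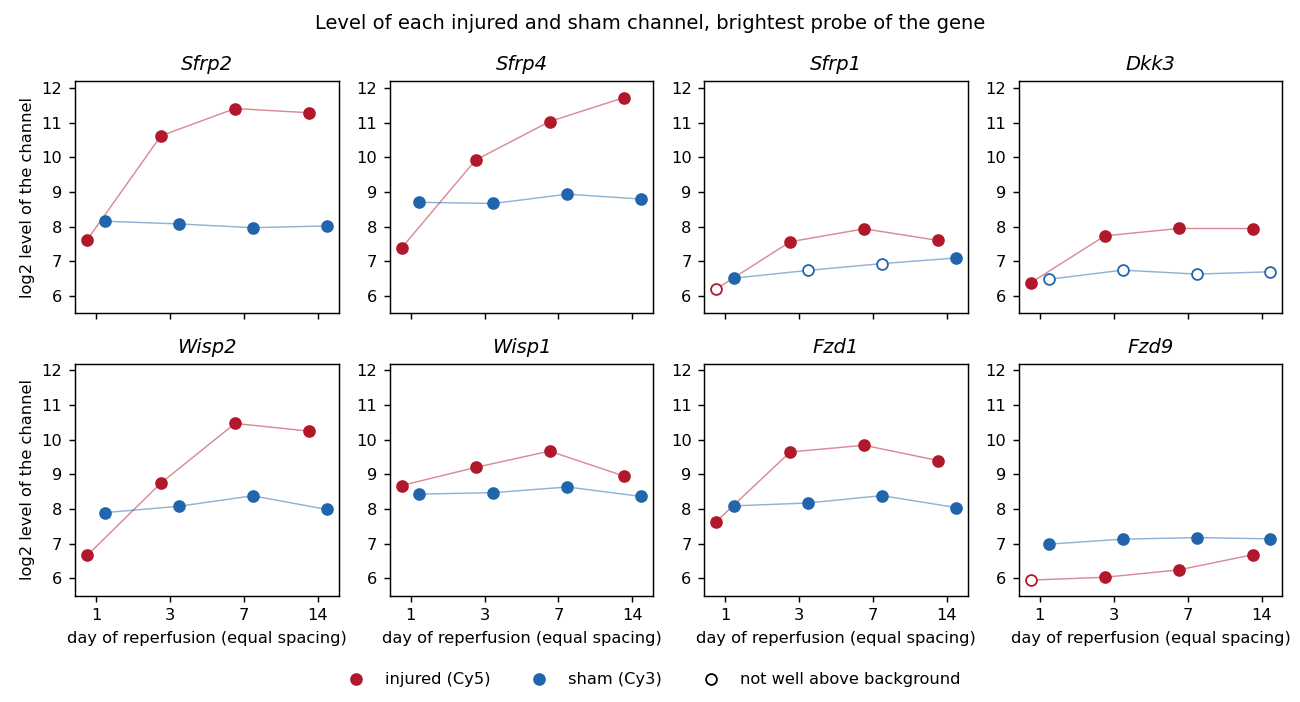
Log2 level of the injured channel (red) and the sham channel (blue) on days 1, 3, 7 and 14, 1 point an array, for the 8 Wnt genes at least 2-fold from sham on a day. Open points were not well above background. Sham levels of Sfrp2 stay between 7.97 and 8.15 while its injured levels reach 11.41, and Fzd9 is lower in the injured channel on every day. Levels of different genes are not comparable.

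**Figure D3:**
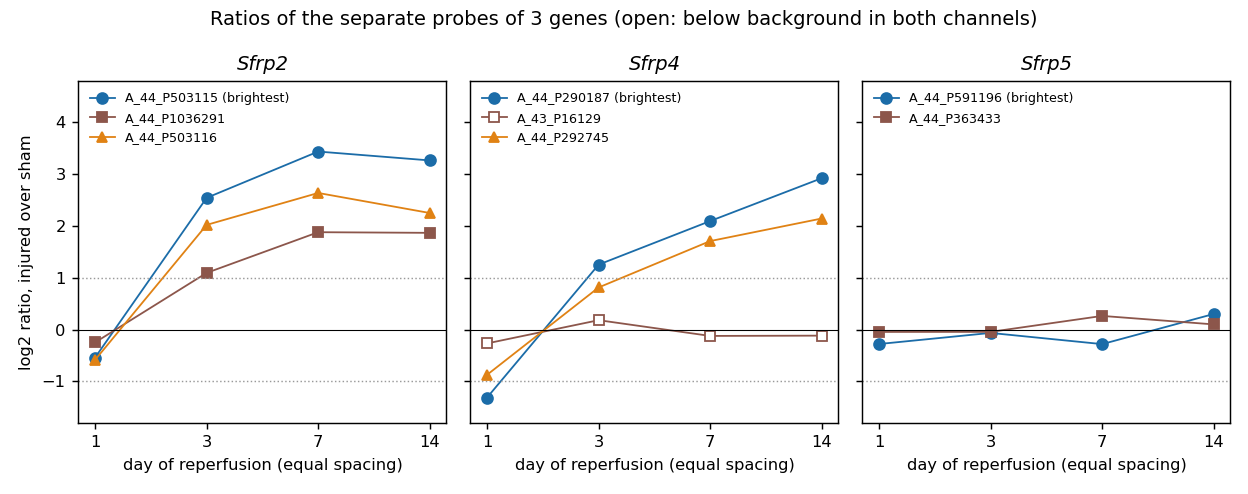
Log2 ratio of injured over sham for each probe of Sfrp2, Sfrp4 and Sfrp5 on days 1, 3, 7 and 14, with dotted lines at 2-fold. The 3 Sfrp2 probes share their order of days but reach 3.44, 2.64 and 1.88 (a lower limit) on day 7, and 1 Sfrp4 probe is below background throughout (open points).

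Among the other secreted inhibitors, Dkk3 was the only one past 2-fold in the loess-normalized ratios. Dkk3 belongs to the Dickkopf family by sequence but differs from Dkk1 in not being known as an inhibitor that acts through Lrp6. Its log2 levels were 6.38, 7.73, 7.95 and 7.94 in the injured channels on days 1, 3, 7 and 14, against 6.48, 6.74, 6.63 and 6.69 in the sham channels. The sham channel was not well above background on any day, and the injured levels of days 3, 7 and 14 lay above all 4 sham levels. Dkk3 was at least 2.49-fold higher on day 7 and at least 2.37-fold higher on day 14, with log2 ratios of -0.10, 0.99, 1.32 and 1.25 over the 4 days. The day 3 value lay just under the threshold, but with the sham channel dim it is a lower limit (at least 1.99-fold higher). The deposited value table gave -0.12, 2.35, 3.72 and 2.82 for Dkk3. Dkk4 had log2 ratios of -0.39, 0.29, 0.38 and 0.46, Wif1 had -0.08, -0.08, 0.03 and 0.17, and Dkk1, measured on days 3, 7 and 14, had -0.06, -0.02 and -0.07. These 3 inhibitors were above background only in the injured channel. The deposited value table held -1.02, 2.21 and 2.34 for Dkk4 on days 1, 3 and 14. Another probe named Dkk4, 26.8 kb away in rn4, was below background in both channels on every array. Whether either probe reads Dkk4 was not checked against a gene annotation of rn4.

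The CCN proteins Wisp1 and Wisp2, now named Ccn4 and Ccn5, are secreted matrix-associated proteins first described as induced by Wnt1 in mouse cells. Wisp2 had log2 levels of 6.66, 8.75, 10.47 and 10.25 in the injured channels, against 7.90, 8.08, 8.38 and 7.99 in the sham channels. As with Sfrp4, its day 1 injured level lay below all 4 sham levels and its later injured levels lay above them all. The log2 ratios were -1.24, 0.67, 2.09 and 2.26, which is 2.36-fold lower on day 1 and 4.25- and 4.79-fold higher on days 7 and 14. With arrays only centred on their median, the day 1 log2 ratio was -0.69. Wisp1 had log2 levels of 8.68, 9.20, 9.67 and 8.96 in the injured channels, against 8.43, 8.47, 8.64 and 8.36 in the sham channels. All 4 injured levels of Wisp1 lay above all 4 sham levels. Its log2 ratios were 0.25, 0.73, 1.04 and 0.59, with 2.05-fold on day 7. The deposited value table gave 0.66 for Wisp1 on day 7, under 2-fold.

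Of the nuclear factors and the feedback inhibitor, Lef1 was not measured, and neither Tcf7 nor Axin2 was 2-fold from sham in the loess-normalized ratios. Tcf7, a partner of beta-catenin on DNA, had log2 ratios of -0.16, -0.28, 0.00 and -0.06. Axin2 was above background on days 3 and 7, in the injured channel alone, with -0.09 and 0.06. The deposited value table held -1.02 and -1.13 for Tcf7 on days 1 and 3, and 1.12 for Axin2 on day 7. Promoters of 28 members were matched by symbol in the RefSeq table (assembly GRCr8). They were searched for CTTTGA, the core letters of the Tcf and Lef site, on both strands (TCAAAG on the other), over 250 bases before to 50 after the start. The letters stood in 5384 of 33469 promoters (16.1%) and in those of 5 of 28 members (17.9%), which were Axin2, Dkk1, Fzd7, Tcf7 and Wnt8a. Of these, Fzd7 and Wnt8a were not measured on any day, and of the 8 genes past 2-fold only Sfrp2, Fzd1 and Fzd9 had a promoter in the table, so the letters cannot be set against the ratios. The 250 bases before the start are shown for Sfrp2 (chr2:171387286-171387535) and Fzd1 (chr4:30264824-30265073), which were higher on the same 3 days, and for Axin2 (chr10:94398535-94398784). All are on the plus strand of GRCr8, and capitals mark CTTTGA, which in Axin2 begins at positions -232 and -132 counted from the start.
Sfrp2: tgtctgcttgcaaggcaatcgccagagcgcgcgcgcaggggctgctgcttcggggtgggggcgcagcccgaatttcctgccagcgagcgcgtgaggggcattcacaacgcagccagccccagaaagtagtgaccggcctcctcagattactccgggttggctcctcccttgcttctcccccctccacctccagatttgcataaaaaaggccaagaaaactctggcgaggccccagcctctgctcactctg
Fzd1: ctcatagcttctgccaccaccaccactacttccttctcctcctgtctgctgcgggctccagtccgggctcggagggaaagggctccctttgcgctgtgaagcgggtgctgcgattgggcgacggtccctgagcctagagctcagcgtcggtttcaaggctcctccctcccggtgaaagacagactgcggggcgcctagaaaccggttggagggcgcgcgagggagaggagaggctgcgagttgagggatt
Axin2: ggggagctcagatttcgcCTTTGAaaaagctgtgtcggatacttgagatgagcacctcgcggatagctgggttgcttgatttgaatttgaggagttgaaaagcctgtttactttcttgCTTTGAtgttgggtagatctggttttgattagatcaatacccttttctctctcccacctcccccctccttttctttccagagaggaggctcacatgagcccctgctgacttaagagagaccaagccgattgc

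Which Wnt genes kept to one side of sham over the 4 arrays was tested with limma, as the mean log2 ratio against 0. The days are not replicates of 1 condition, so this test asks only about the mean relative to the spread between days. None of 22 members passed an adjusted p of 0.05, against 37 of 20530 genes (0.0244% above 0 and 0.156% below). At an unadjusted p under 0.05, 6 members (Dkk3, Fzd9, Sfrp2, Wisp1, Wnt2 and Wnt11) and 21.8% of all genes passed. Fzd9 had the smallest p of the members, with a mean of -0.88 ± 0.13 (SE; limma, adjusted p = 0.0975), and was lower on 4 of 4 arrays. Wisp1 followed with 0.65 ± 0.14 (SE; limma, adjusted p = 0.135), higher on 4 of 4 arrays. Sfrp2 had a mean of 2.18 ± 0.74 (SE; limma, adjusted p = 0.203), higher on 3 of 4 arrays.

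Of the 22 members measured on every array, only 1 (Wisp1) had all 4 injured levels above all 4 sham levels, against 4.93% of all such genes. Only 1 of 22 (Fzd9) had all 4 below, against 4.76%. Both shares were near those of all genes. Members at least 2-fold higher on days 3, 7 and 14 numbered 3 of 22 (Sfrp2, Sfrp4 and Fzd1), against 0.472% of all such genes. Members at least 2-fold lower on day 1 and at least 2-fold higher on a later day numbered 2 of 22 (Sfrp4 and Wisp2), against 1.01%. These last 2 patterns were picked out after the values were seen and are given as counts.

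Other genes of the pathway had medians near sham, with a few genes far from it. A list of secretion factors, further receptors, further inhibitors, cytoplasmic components and reported target genes held 59 genes found on the array. Their median log2 ratios were 0.04, 0.03, 0.17 and 0.07 on days 1, 3, 7 and 14. At least 2-fold higher were 2 of 53, 4 of 52, 3 of 53 and 2 of 52 measured genes on those days, against 1.24%, 2.47%, 3.13% and 3.14% of all genes. At least 2-fold lower were 1, 1, 0 and 3, against 4.91%, 3.95%, 1.23% and 1.57%. Wls, which carries Wnt proteins to the cell surface, had log2 ratios of -0.30, 0.58, 0.85 and 1.18. Ptk7, a co-receptor of the planar polarity branch, had -0.25, 1.25, 0.94 and 0.42, and Prickle1, a core component of that branch, had -0.71, 0.03, 1.02 and 1.27. Celsr1, a cadherin of the same branch, had 0.49, -1.40, -0.35 and -0.38. Dvl1, which relays the signal from Frizzled receptors, had -1.03, -0.44, 0.38 and 0.38.

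Of the reported target genes, 19 were found and 15 or 16 were measured on a day, with median log2 ratios of 0.28, 0.46, 0.35 and -0.05. At least 2-fold higher were 2, 3, 2 and 0 of them on days 1, 3, 7 and 14, and 0, 0, 0 and 3 were at least 2-fold lower, against the shares of all genes just given. Ccnd1 (cyclin D1) had log2 ratios of 1.5, 1.77, 0.67 and -0.05. Id2, an inhibitor of helix-loop-helix factors, had 1.53, 0.59, 0.34 and 0.43, and the helix-loop-helix factor Twist1 had 0.89, 1.17, 0.78 and 0.85. Gja1, a gap junction protein, had 0.67, 1.43, 0.65 and 0.02. Jun, an AP-1 factor, had 1.30 on day 7, and the protease Mmp7 was at least 2-fold higher on that day, when its sham channel was not above background. The 3 genes lower on day 14 were Myc (-1.20), the hyaluronan receptor Cd44 (-1.17) and the AP-1 factor Fosl1 (-1.15).

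Whole muscle was measured, so more cells of a type and more RNA per cell cannot be told apart. Markers of fibroblasts, which make collagen matrix, had medians on the same side of sham as the median of the Sfrp genes on each day. Sfrp5 itself was not on that side on days 3 and 7, with -0.06 and -0.28. Their median log2 ratios were -0.69, 0.78, 1.69 and 1.73 on days 1, 3, 7 and 14, over 7 measured markers on day 1 and 8 later. At least 2-fold lower on day 1 were 3 of 7, and at least 2-fold higher on days 3, 7 and 14 were 4, 4 and 5 of 8. Col1a1, a chain of type I collagen, had log2 ratios of -2.54 and 1.80 on days 1 and 3, and was at least 9.63-fold and at least 13.8-fold higher on days 7 and 14, when its injured spot was saturated. The list was not uniform: the receptor Pdgfra had -0.35, 1.67, -0.43 and -0.15, and the matrix protein Postn had -1.19, -0.62, 2.57 and 3.24. The summed log2 level of the fibroblast markers was 14.07 to 16.93 in the injured channels and 14.64 to 15.76 in the sham channels. The injured spot of Col3a1 was saturated on days 3, 7 and 14, so the summed injured levels of those days are lower limits. Thy1 was above background in no sham channel. Their part in the ratios of Sfrp2, Sfrp4, Wisp2 and the other Wnt genes was not tested.

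Mature fibre markers had medians of -3.15, -4.29, -0.55 and 1.1, with 7 of 7 at least 2-fold lower on days 1 and 3 and 4 of 7 at least 2-fold higher on day 14. On day 14 the injured spots of Ckm, Mb and Actn3 were saturated, and Actn3 sets that median, so the median and the summed level of that day are lower limits. Their summed log2 level was 14.34 to 18.16 in the injured channels and 17.24 to 18.50 in the sham channels. Macrophage markers had medians of 0.51, -0.07, -0.40 and -0.89 over 7 measured genes, with summed log2 levels of 12.99 to 14.63 in the injured channels and 13.36 to 13.96 in the sham channels. The list was split on day 7: Cd68, Itgam and Emr1 had 1.13, 1.34 and 1.57, and Mrc1 and Cd163 had -1.69 and -1.95. Of the fat cell markers, 3 were measured, with medians of 0.06, 1.57, 1.58 and 1.91, and Lep was not above background in any channel. Their summed log2 levels were 12.09 to 14.12 in the injured channels and 11.88 to 12.11 in the sham channels. Medians of the pericyte and smooth muscle markers were -1.07, 0.18, 0.94 and 0.43 over 3 measured genes. Those of the myoblast and satellite cell markers were -0.92, 0.18, 0.71 and 0.12 over 5. Both medians were below sham on day 1 and above it later, but neither list was uniform. Rgs5 followed that course, while Cspg4 was at least 2-fold lower and Pdgfrb above sham on each day. Myod1, Myf5 and Cdh15 followed it too, while Myog had -3.74, -1.45, -0.02 and -1.22, and Des lay below sham on each day. T cell markers had medians of 0.19, 0.18, 1.12 and 0.74, but were split on day 14, with 2.65 for Cd3d, 3.44 for Cd3g and -1.88 for Cd8a. The medians of endothelium and of Schwann cell and nerve markers lay between 0.01 and 0.39. The endothelium list was not uniform: Kdr had 0.61, 0.37, 1.72 and 1.37, and no other marker of that list was 2-fold from sham. Summed log2 levels of the endothelium markers were 12.49 to 13.76 in the injured channels and 11.80 to 12.18 in the sham channels. The part of these cell types in the Wnt ratios was not tested either.

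**Figure D4:**
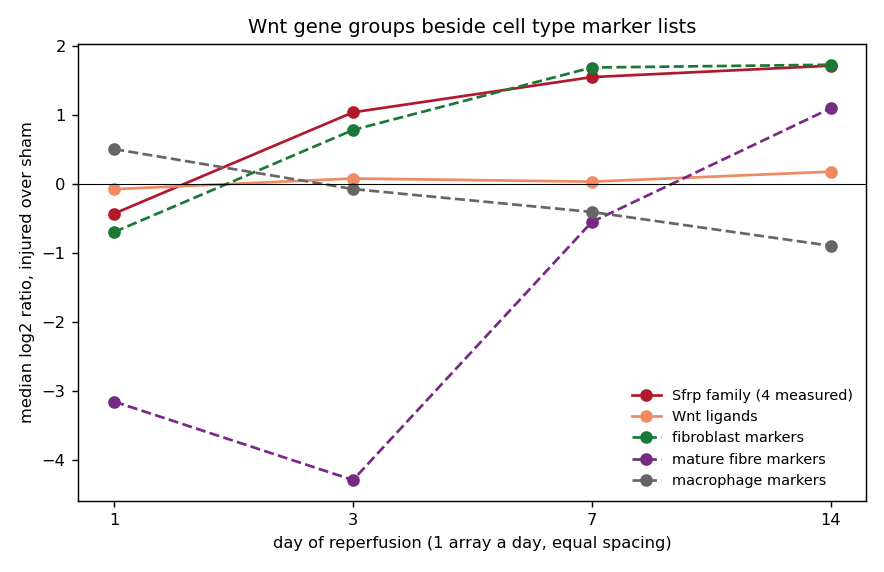
Median log2 ratio of injured over sham for the measured Sfrp genes and Wnt ligands (solid lines) and for fibroblast, mature fibre and macrophage markers (dashed lines) on days 1, 3, 7 and 14, 1 array a day. The Sfrp median is below sham on day 1 (-0.43) and above it on day 14 (1.72), as is the fibroblast median (-0.69 and 1.73), while the ligand median stays between -0.07 and 0.18.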

How the data were processed

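RNA of injured and sham muscle was measured on 4 Agilent 2-colour arrays, 1 for each day, and each array was grouped by the reperfusion time in its labels. Per the file headers, the deposited intensity values are unnormalized mean spot brightness and median local background. The deposited log10 ratio of red over green was background-subtracted and dye-normalized (linear and LOWESS) by Feature Extraction, version 10.5.1.1 per the file headers and 9.5.3 per the submitters' processing notes. The deposited value table holds log2 ratios that differed from that log10 ratio, turned to log2, by at most 0.005, with medians of 0, so its scale, centring and direction are settled.

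From the intensities, background was corrected with normexp (offset 50, which pulls ratios of dim spots towards 0) and each array was normalized by loess in R 4.3.3 with limma 3.58.1, control and outlier spots having no weight. Single-channel levels came from Aquantile normalization after loess. Spots of a probe were averaged. A fold with 1 dim channel is given as a bound, for which that channel took the array's lowest level of any clearly detected probe where this exceeded its own. For the mean over arrays, limma's moderated test against 0 was used, and p-values were adjusted (Benjamini-Hochberg) over 20530 genes. The steps were tested on simulated data. Days 1, 3 and 7 share a scan session and day 14 was scanned in another, so scan session and day cannot be told apart for day 14.

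Gene names are those of the array files, without the suffix for predicted genes. A member was described in full if it was at least 2-fold from sham on a day or passed the test of the mean. Other pathway genes were named if 2-fold from sham on a day. Members, lists and tests were chosen with earlier results of these data known. Alternatives were the deposited ratios, median centring, other filters on dim spots, the mean of a gene's probes, the mean of the sham channels, each array left out and scan session as a random block. The number of arrays limits the precision.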

Additional observations from a re-analysis of the deposited data

Results flagged for a closer look

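Sfrp4 had a log2 ratio of -1.31 on day 1 and of 2.92 on day 14, past 2-fold on opposite sides of sham. Wisp2 had -1.24 on day 1 and 2.26 on day 14 in the same way. The difference between the days was not tested for either gene, since each day is a single array. With arrays only centred on their median, the day 1 values (-0.49 and -0.69) were not past 2-fold.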

How the results depend on the processing

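Across 8 genes and 4 days, the log2 ratios kept their side of 2-fold and their sign in all 32 cases with the mean of a gene's probes. The same held without a filter on dim spots and with dim channels set to their bound. These 2 settings could not change any value, because all 8 genes were measured on every day and no bound differed from its ratio. Averaging probes could change only Sfrp2 and Sfrp4, since the others of the 8 had a single probe. Exceptions arose with the deposited ratios (4 values newly past 2-fold, 1 no longer past), with median centring (6 and 3; on day 1 Fzd1 also had 0.32 in place of -0.45 and Sfrp2 0.24 in place of -0.54) and with the mean of the 4 sham channels (1 newly past). Median centring shifted the median of all genes by 0.35, 0.26, 0.23 and 0.22 on days 1, 3, 7 and 14. Single genes shifted by other amounts, such as Wnt11 on day 1 (1.12 in place of 0.04). Axin2, below background in both channels on day 1, had -0.29 in place of 0.05 on that day. In Wnt genes at least 2-fold higher, the deposited ratios gave 3, 11, 9 and 7 on days 1, 3, 7 and 14, against 12.1%, 15.5%, 17.5% and 17.3% of all genes. Median centring gave 2, 9, 8 and 8, against 21.8%, 17.2%, 11.6% and 12.1%. At least 2-fold lower were 6, 2 and 3 on days 1, 3 and 7 with the deposited ratios, against 8.58%, 7.49% and 8.14%, and 1 and 0 on days 1 and 3 with median centring, against 1.89% and 1.61%. With the deposited ratios, the median over the Wnt genes was -0.435, 0.670, 0.570 and 0.640 on days 1, 3, 7 and 14, against 0.14, 0.18, 0.23 and 0.12 over all genes. With median centring it was -0.067, 0.205, 0.183 and 0.441, against 0.37, 0.29, 0.27 and 0.27, and so below that of all genes on days 1, 3 and 7. For genes above background in both channels it was -0.241, 0.586, 0.664 and 0.343, against -0.01 to 0.00. It was -0.061 and 0.044 on days 1 and 3 without the filter. Set against the 4 sham channels averaged, it was -0.252, 0.178 and 0.183 on days 1, 3 and 7, against 0.03, 0.04 and 0.08 over all genes. The cause of these changes was not tested.

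In the test of the mean, 1 Wnt gene passed with the deposited ratios (Fzd9; limma, adjusted p = 0.0454). With median centring 7 passed (Fzd1, Fzd9, Sfrp2, Wisp1, Wnt4, Wnt7a and Wnt11), where 41.5% of all genes passed. Leaving out each array in turn gave 0 to 0, and the smallest adjusted p of a member ranged over all alternatives between 0.00611 and 0.347. Wnt genes with all injured levels above all sham levels numbered 3 without the filter (Fzd7 and Wnt8b, both below background, beside Wisp1). Those below numbered 0 with both channels above background, since Fzd9 was then not tested. The alternatives for these overlaps and the bound for dim channels were chosen after seeing the data. No paired analysis was possible because each day has 1 array and the replicate number is 1 throughout, which gives no block between days. Each ratio already sets injured against sham on 1 array. Signal over background limits the ratios of 8 of 13 measured ligands and of all 4 Dickkopf and Wif1 genes, which had no sham level above background.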
